A study of Mus musculus with 8 samples.

Results

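Alas2, S100a8 and S100a9 are transcripts typical of blood cells and not of muscle fibres, and they were examined as signs of blood in the gastrocnemius of Anxa2 knockout and wild-type mice. They were taken by Ensembl ID from a list of 7 genes, of which 3 had a row among the 17352 genes of the value table: ENSMUSG00000025270_at for Alas2, ENSMUSG00000056054_at for S100a8 and ENSMUSG00000056071_at for S100a9. The other 4 IDs on the list were the globin genes Hba-a1, Hba-a2, Hbb-bs and Hbb-bt, and 0 of these had a row, so haemoglobin itself is not analysed here. The tissue came from 4 Anxa2 knockout mice and 4 wild-type mice, all on the C57BL/6 background and 24 weeks old. Each animal gave 1 array, labelled from 250 ng of total RNA of the left gastrocnemius, a calf muscle. Anxa2 encodes annexin A2, a calcium-dependent membrane-binding protein, and the series asks about its role in muscle repair. The labels do not say how the allele was made, whether it is lost in every tissue, the sex of the animals, or whether blood was flushed from the muscle before freezing.

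A piece of muscle carries the blood that was in its vessels when it was frozen. Immature red cells hold the messages for globin and for ALAS2, the erythroid form of the enzyme that starts haem synthesis, whereas ALAS1 serves that step in other tissues. S100A8 and S100A9 are small calcium-binding proteins that pair with each other as calprotectin. They make up a large part of the cytosolic protein of neutrophils and are also made by monocytes, and once released they act as alarm signals through receptors such as TLR4. In a whole-tissue sample, fewer cells of a type and less RNA per cell cannot be told apart.

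S100a8 and S100a9 lie next to each other on mouse chromosome 3, with 0 annotated genes between them in the RefSeq table, and are read from opposite strands. Alas2 lies on the X chromosome. Their promoters are shown because S100a8 and S100a9 varied together over the animals and Alas2 had its highest value in another animal. Each sequence is the 250 bases before the annotated start in RefSeq (GRCm38.p6), 5′ to 3′ on the gene's own strand: chr3:90668821-90669070 on the plus strand for S100a8, chr3:90695722-90695971 on the minus strand for S100a9, and chrX:150547167-150547416 on the plus strand for Alas2. Capitals mark matches on either strand to 4 motifs. The TATA box was searched as the letters TATAAA. The site of the erythroid factor family that includes Gata1 was searched as AGATAA. The C/EBP site was searched in a loose form, TTNNGNAA. The site of PU.1, a factor of myeloid cells, was searched as GAGGAA.
S100a8: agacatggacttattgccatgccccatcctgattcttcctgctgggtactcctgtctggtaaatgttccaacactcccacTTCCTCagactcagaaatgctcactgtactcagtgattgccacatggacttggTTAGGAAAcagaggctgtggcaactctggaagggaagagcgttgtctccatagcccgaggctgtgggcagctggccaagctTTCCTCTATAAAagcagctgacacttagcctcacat
S100a9: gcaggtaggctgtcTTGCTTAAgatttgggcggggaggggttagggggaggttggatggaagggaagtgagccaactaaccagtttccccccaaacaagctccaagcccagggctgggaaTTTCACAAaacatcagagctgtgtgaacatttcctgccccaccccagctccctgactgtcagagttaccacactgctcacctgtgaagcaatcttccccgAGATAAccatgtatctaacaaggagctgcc
Alas2: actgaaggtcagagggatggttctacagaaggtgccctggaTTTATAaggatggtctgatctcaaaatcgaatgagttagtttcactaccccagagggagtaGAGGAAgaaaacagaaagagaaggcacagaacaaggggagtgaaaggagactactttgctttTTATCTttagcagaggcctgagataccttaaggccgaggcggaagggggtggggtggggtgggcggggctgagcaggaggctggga
The S100a8 promoter held 1 C/EBP match, 2 PU.1 matches and 1 TATA box, and the TATA box directly adjoined a PU.1 match on the other strand. The S100a9 promoter held 2 C/EBP matches and 1 match to the erythroid motif. The Alas2 promoter held 1 match each to the erythroid motif, the PU.1 motif and the TATA box letters. Its TATA match lay on the other strand, at bases -209 to -204 from the start. That of S100a8 lay on the gene's own strand at bases -30 to -25. Among all 32851 promoters of the table, cut to the same length, 36.8% held the C/EBP motif, 23.3% the PU.1 motif, 12.4% the TATA box and 9.99% the erythroid motif. The C/EBP motif was thus the only one of the 4 found in both S100 promoters and not in that of Alas2, and it is also the most common. A match describes letters only and is no evidence of a bound factor. Whether these letters bear on how the genes varied over the animals was not tested.

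The arrays were not equally alike. Wild type replicate 4 stood apart, with a first principal component score of 46.5 and a mean correlation of 0.978 with the other arrays, and Anxa2 knockout replicate 2 had the next highest score, 13.8. The other arrays scored between -15.5 and -3.47, and their mean correlations, with that of knockout replicate 2, lay between 0.988 and 0.991. The genotype differences and the correlations between the 3 genes are therefore also given without 1 or both of these arrays. The rows carry Ensembl IDs only and the reference table pairs 0 of them with a symbol, so the rows of Anxa2, of muscle genes and of other blood cell markers were not looked up and the labelled tissue and genotype were not checked. The symbols of Alas2, S100a8 and S100a9 are those given with the list of IDs.

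None of the 3 blood transcripts separated Anxa2 knockout muscle from wild-type muscle. All 3 knockout means were below the wild-type means, by 0.14 to 0.44 on the log2 scale. Every one of these differences was smaller than the pooled SD between animals of a genotype. Among all 17352 genes, 9184 were lower in the knockout by mean. S100a8 and S100a9 varied together, so the 3 genes are not separate observations. What stood out was single animals: wild type replicate 4 for the red-cell enzyme Alas2, and knockout replicate 2 for the neutrophil pair S100a8 and S100a9. Of the 3 genes, 0 passed an adjusted p of 0.05 in limma, against 0% of all 17352 genes. At an unadjusted p under 0.05 the count was also 0 of 3, against 1.55% of all genes. In 0 of the 3 did the arrays of the genotypes lie apart, against 1.31% of all genes.

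Alas2 encodes the erythroid 5-aminolaevulinate synthase, the first and rate-limiting enzyme of haem synthesis in red-cell precursors, and its message persists in reticulocytes. It read 5.88, 5.59, 6.03 and 5.33 (RMA log2 value) in Anxa2 knockout replicates 1 to 4, against 5.13, 5.97, 5.88 and 7.61 in wild type replicates 1 to 4. Wild type holds both the highest and the lowest of the 8 arrays, and all 4 knockout arrays lie between them. The mean level was 5.71 ± 0.31 (SD, n = 4) in the knockout and 6.15 ± 1.05 (SD, n = 4) in wild type. The difference of -0.44 (SE 0.43, 95% interval -1.39 to 0.51) had a limma p of 0.33 before and 1.00 after Benjamini-Hochberg adjustment over all genes. The interval spans levels in the knockout from 0.381 to 1.42 times those in wild type. An exact two-sided permutation test over the 70 assignments of the genotype gave p = 0.60, where the smallest p this design allows is 0.029.

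The wild-type mean of Alas2 depended on single animals. Wild type replicate 4 lay 1.95 above the average of wild type replicates 1 to 3 (7.61 against 5.66), or 3.87-fold. The other 3 ran from 5.13 to 5.97, within or just below the range of the knockout arrays. Without that array the difference turned sign, to 0.047 (SE 0.22). Without it and knockout replicate 2 it was 0.085 (SE 0.25), a setting added after the values were seen. This is also the array that stood apart on the first component over all genes. Whether the Alas2 level and that general deviation share a source was not tested.

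S100a8 encodes the smaller calprotectin subunit. Its log2 values were 4.03, 5.11, 4.20 and 4.11 in Anxa2 knockout replicates 1 to 4, against 3.83, 4.64, 4.89 and 4.64 in wild type replicates 1 to 4. In the knockout, replicate 2 was high and the other 3 lay between 4.03 and 4.20, whereas in wild type replicate 1 was low and the other 3 lay between 4.64 and 4.89. The groups overlapped, since the highest array was a knockout and the lowest a wild type. The mean level was 4.36 ± 0.50 (SD, n = 4) in the knockout and 4.50 ± 0.46 (SD, n = 4) in wild type. The difference was -0.14 (SE 0.27, 95% interval -0.75 to 0.47), with a limma adjusted p of 1.00 and an exact permutation p of 0.66.

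S100a9 encodes the partner subunit, which is the longer of the 2 proteins. It read 4.31, 6.47, 4.75 and 4.77 in Anxa2 knockout replicates 1 to 4, against 4.51, 5.44, 5.72 and 5.29 in wild type replicates 1 to 4. Knockout replicate 2 was again the highest array, while the lowest was knockout replicate 1. The mean level was 5.08 ± 0.96 (SD, n = 4) in the knockout and 5.24 ± 0.52 (SD, n = 4) in wild type, a difference of -0.17 (SE 0.43, 95% interval -1.12 to 0.78). Its limma adjusted p was 1.00 and its exact permutation p 0.86.

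Medians and means gave different pictures for the neutrophil pair. The median S100a9 level was 4.76 in the knockout and 5.37 in wild type, a difference of -0.61, against -0.17 for the means. For S100a8 the medians were 4.15 in the knockout and 4.64 in wild type, a difference of -0.48, against -0.14 for the means. Knockout replicate 2 lay 1.87 above the mean of the other 3 knockout arrays for S100a9 (6.47 against 4.61), or 3.65-fold, and 1.00 above for S100a8 (5.11 against 4.11). The remaining 3 knockout arrays were all below the mean of wild type for both genes. Without knockout replicate 2 the difference was -0.63 (SE 0.26) for S100a9, with a limma p of 0.039 before and 0.94 after adjustment over all genes, and -0.39 (SE 0.22) for S100a8, with a limma adjusted p of 0.94. With wild type replicate 4 left out as well, the difference was -0.62 (SE 0.29) for S100a9 and -0.34 (SE 0.24) for S100a8. That setting was added after the values were seen. Without knockout replicate 1, the S100a9 difference turned to 0.088 (SE 0.43). The direction of the S100a9 difference thus changed with 1 array, and neither gene passed the adjusted threshold in any of the fits run.

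**Figure D1:**
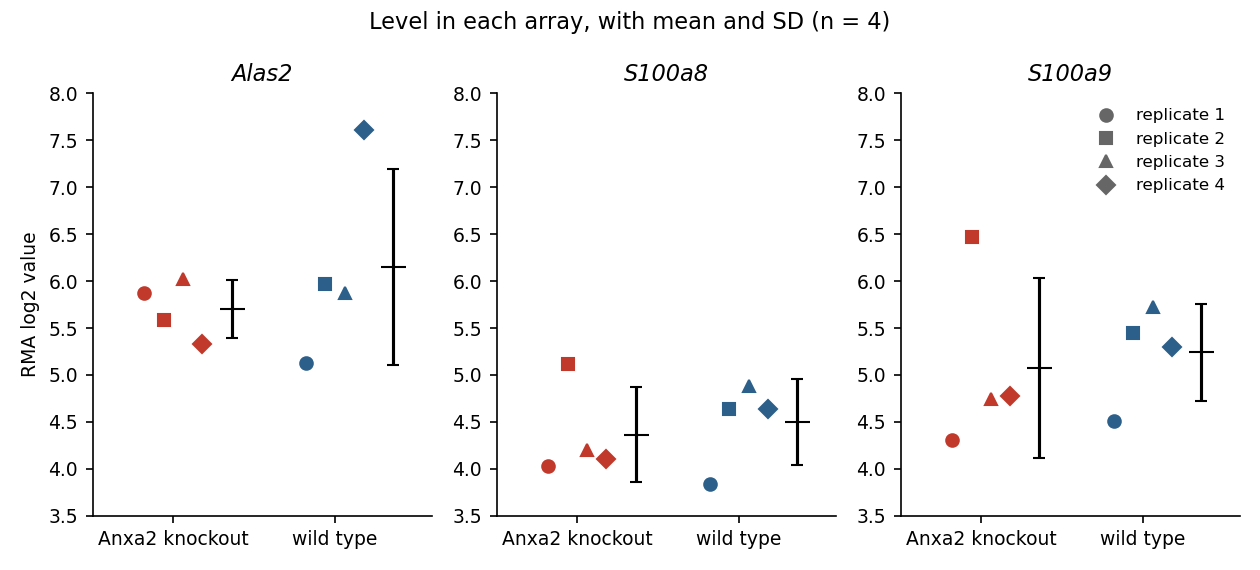
Level of Alas2, S100a8 and S100a9 in each array (y axis, RMA log2 value, starting at 3.5), with Anxa2 knockout on the left and wild type on the right of each panel. Marker shapes give the replicate number, and the horizontal tick and bar give the mean and SD of 4 arrays. Wild type replicate 4 is the highest for Alas2 at 7.61, and knockout replicate 2 the highest for S100a8 at 5.11 and S100a9 at 6.47.

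**Figure D2:**
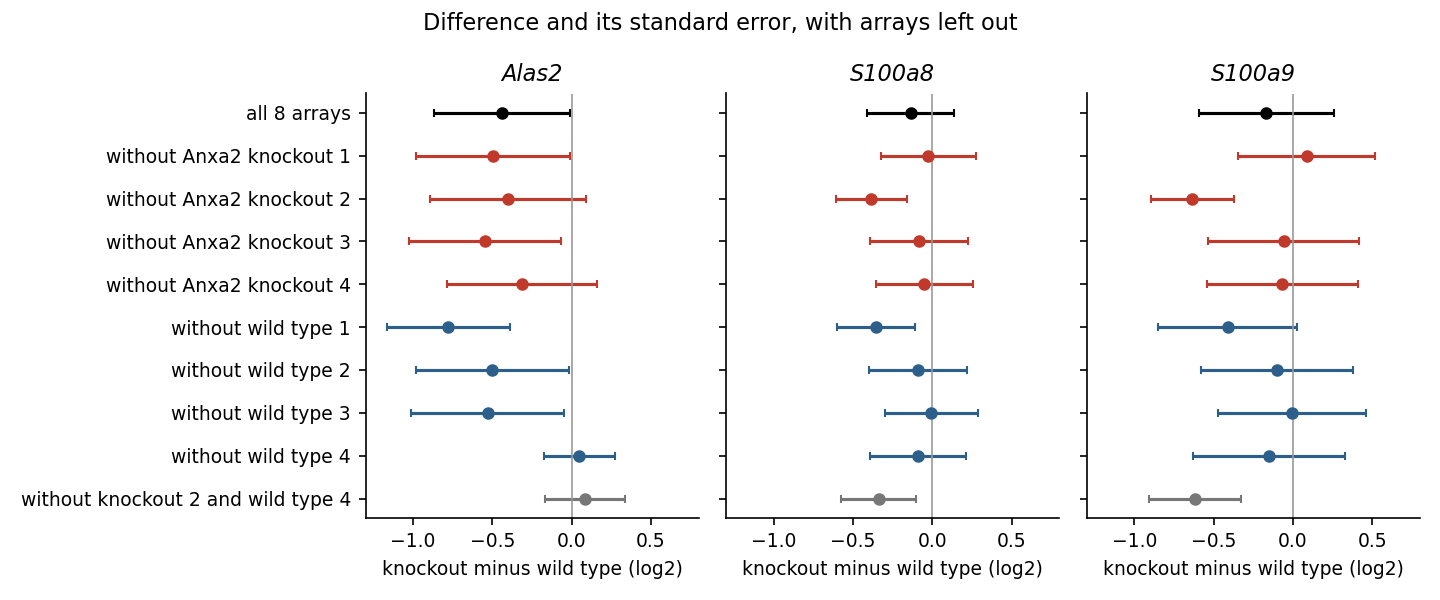
Difference of knockout minus wild type (x axis, log2) with its standard error from limma, for all 8 arrays and with arrays left out as named at the left. The Alas2 difference of -0.44 crosses 0 without wild type replicate 4 and is lowest at -0.78 without wild type replicate 1. The S100a9 difference is lowest at -0.63 when knockout replicate 2 is left out and highest at 0.088 when knockout replicate 1 is left out.

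These transcripts were among the most uneven of the table between animals of the same genotype. The pooled within-genotype SD was 0.771 log2 units for Alas2, 0.769 for S100a9 and 0.482 for S100a8, against a median of 0.185 over all genes. As many as 86 of the 17352 genes had an SD as high as that of Alas2, the gene itself included, 87 as high as that of S100a9 and 483 as high as that of S100a8. From the lowest to the highest array, Alas2 spanned 5.57-fold, S100a9 4.49-fold and S100a8 2.42-fold on the RMA scale. These spans describe how much each transcript moved and do not compare the amounts of the transcripts.

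Each of these spreads drew in part on the array that was highest. Without wild type replicate 4 the pooled SD of Alas2 was 0.377, which 572 of 17352 genes reached, with a median over all genes of 0.150. Without knockout replicate 2 it was 0.433 for S100a9, reached by 786 genes, and 0.359 for S100a8, reached by 1504 genes, with a median over all genes of 0.178. The spread of S100a8 drew on its lowest array too. Without wild type replicate 1 its pooled SD was 0.401, reached by 1086 genes, with a median over all genes of 0.187. In that setting it was 0.662 for Alas2 and 0.754 for S100a9. The SD of Alas2 was 0.31 in the knockout and 1.05 in wild type, and that of S100a9 was 0.96 in the knockout and 0.52 in wild type. No test of unequal spread was made. The wide intervals follow from this spread: the 95% interval of the difference reached 0.951 either side for Alas2 and 0.949 for S100a9, against a median of 0.285 over all genes. A 2-fold lower level in the knockout lay inside the interval for Alas2 and S100a9 and outside it for S100a8.

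**Figure D3:**
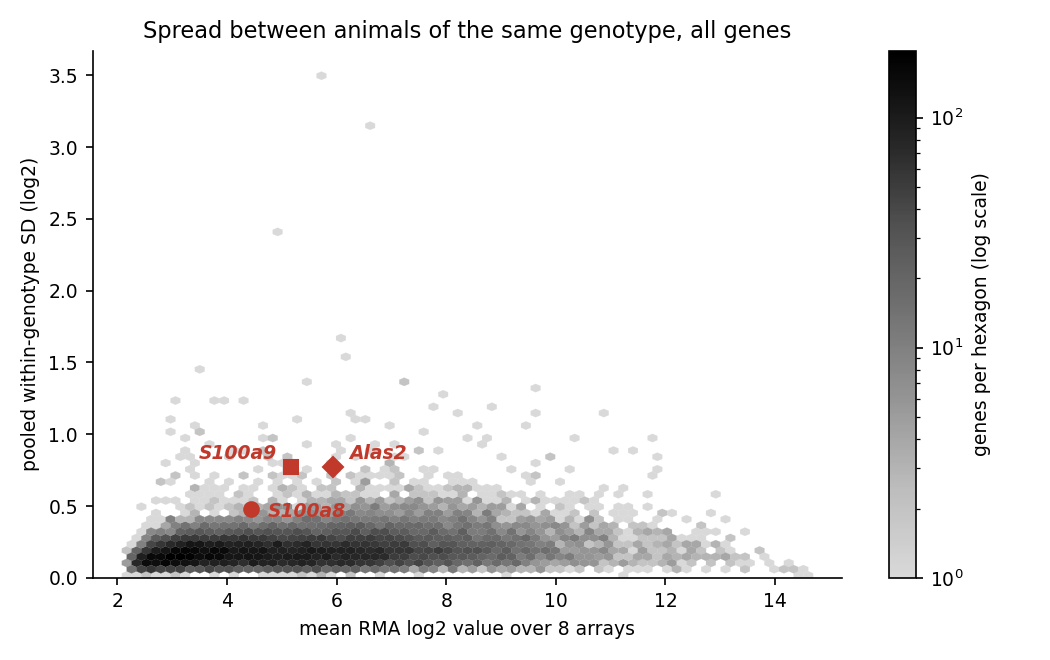
Pooled SD of arrays within a genotype (y axis, log2) against mean RMA log2 value over the 8 arrays (x axis). Grey hexagons hold all 17352 genes, with darker grey for more genes on a log scale, and red markers show the blood transcripts. Alas2 at 0.771 and S100a9 at 0.769 lie above the bulk of genes of like level, and S100a8 at 0.482 near its upper edge.

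S100a8 and S100a9 varied together over the 8 animals. Pearson's r was 0.961 (exact permutation p = 0.00032, two-sided, n = 8) and Spearman's rho 0.952 (exact permutation p = 0.0011), and over the 3 relations computed the Benjamini-Hochberg adjusted values were 0.00097 and 0.0034. Without wild type replicate 4 Pearson's r was 0.967, and without it and knockout replicate 2 it was 0.957. On deviations of all 8 arrays from the genotype means r was 0.961. The permutation test of these deviations (p = 0.00017) shuffled them across genotypes, so its p is not exact for a relation within genotypes. Within the 4 knockout arrays r was 0.990, and within the 4 wild-type arrays 0.991. Each of these values drew on 1 array far from the rest of its group, knockout replicate 2 and wild type replicate 1. Without the 2 arrays farthest from the median of S100a8, knockout replicate 2 and wild type replicate 1, r was 0.973 over the other 6. Those 6 lie apart by genotype. S100a8 ran from 4.03 to 4.20 in the knockout and from 4.64 to 4.89 in wild type, and S100a9 from 4.31 to 4.77 and from 5.29 to 5.72. This r therefore includes the gap between genotypes, and the relation within genotypes without these 2 arrays was not tested. A step of 1 log2 unit in S100a8 went with 1.53 units in S100a9. This slope holds for the RMA scale, which compresses differences near background. S100a8 lay lower in the arrays, at percentiles 29 to 51 of all genes against 39 to 73 for S100a9. The labels name no batch, so none was tested.

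Measured against the whole table, each of the pair was among the closest matches of the other. Of the 17351 other genes, S100a9 had the highest correlation with S100a8 over the 8 arrays, and S100a8 had the 3rd highest with S100a9. With each array left out in turn, S100a9 held a place between 2 and 5 for S100a8, and S100a8 a place between 2 and 11 for S100a9. The correlation itself stayed between 0.958 and 0.974 with those arrays left out. On deviations from the genotype means each of the pair was 6th for the other. Over the 8 arrays 16 genes correlated with S100a8 at over 0.9, and 13 with S100a9. With 1 array left out in turn the number lay between 26 and 91 for S100a8, the highest without wild type replicate 3, and between 18 and 79 for S100a9, the highest without wild type replicate 4. With the mean of the pair, the closest other rows were ENSMUSG00000035704_at (r = 0.970, n = 8) and ENSMUSG00000022542_at (r = 0.951, n = 8), which are not paired with a symbol here. ENSMUSG00000035704_at moved far less than the pair, from 5.79 to 6.13.

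No relation of Alas2 with the neutrophil pair passed a test, and its size depended on single arrays. Its Pearson's r was 0.324 with S100a8 (exact permutation p = 0.49, adjusted 0.73, n = 8) and 0.136 with S100a9 (exact permutation p = 0.76, adjusted 0.76, n = 8). Spearman's rho was 0.262 (exact permutation p = 0.54, adjusted 0.80) and 0.048 (exact permutation p = 0.93, adjusted 0.93). Without wild type replicates 1 and 4, the 2 arrays farthest from the median of Alas2, r was 0.010 with S100a8 and -0.14 with S100a9. Without knockout replicate 2 it was 0.555 with S100a8 and 0.409 with S100a9. Without wild type replicate 4 it was 0.376 with S100a8 and 0.159 with S100a9, and without both of these arrays 0.605 and 0.391. Within the 4 knockout arrays r was -0.21 with S100a8 and -0.32 with S100a9, and within the 4 wild-type arrays 0.520 and 0.401. With 8 animals these values do not exclude a relation. The 2 extremes were held by different animals: wild type replicate 4, highest for Alas2, ranked 4th of 8 for both S100 genes, and knockout replicate 2, highest for both S100 genes, ranked 6th for Alas2. Wild type replicate 1 was the lowest array for Alas2 and S100a8 and the second lowest for S100a9, so it was low in all 3.

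**Figure D4:**
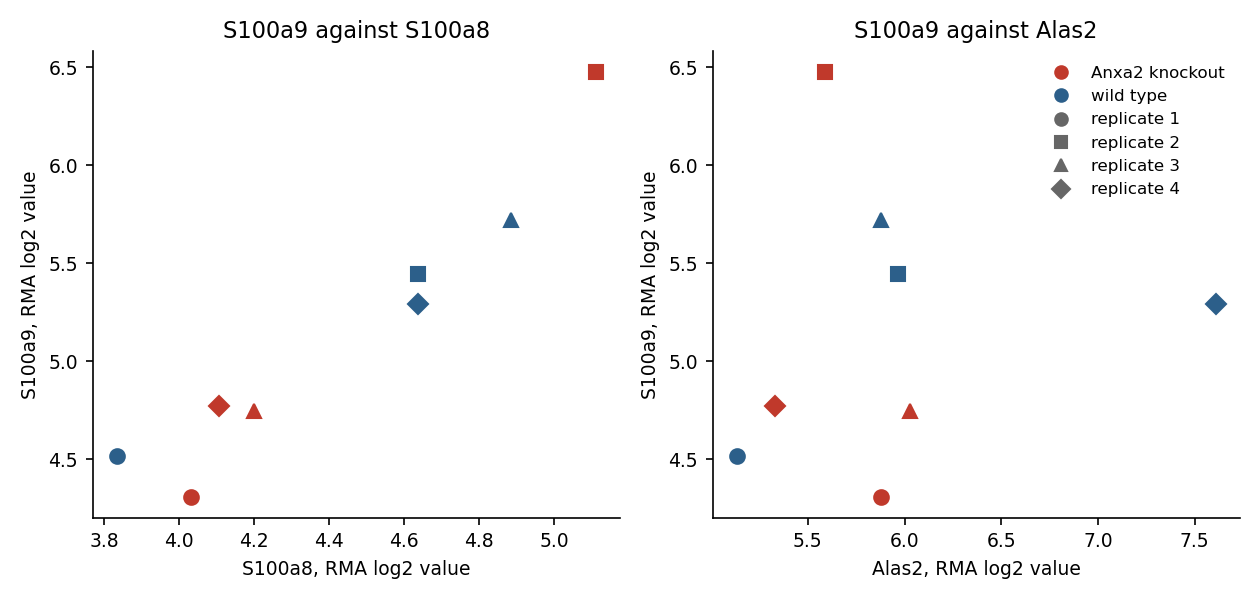
S100a9 (y axis, RMA log2 value) against S100a8 on the left and against Alas2 on the right (x axes, RMA log2 value), 1 marker per array, with Anxa2 knockout in red and wild type in blue and shapes for the replicate number. The 8 arrays lie close to a rising line on the left (r = 0.961) and show no such line on the right (r = 0.136).

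The genes most like Alas2 were many, and most of them depended on 1 array. Over the 8 arrays 241 genes correlated with Alas2 at over 0.9, but without wild type replicate 4 the number was 32. With the other arrays left out in turn it lay between 374 and 652. The closest were ENSMUSG00000020877_at (r = 0.991, n = 8) and ENSMUSG00000055409_at (r = 0.991, n = 8), at 0.953 and 0.951 without wild type replicate 4. These rows ran from 6.11 to 6.49 and from 2.35 to 2.93, against 5.13 to 7.61 for Alas2, and they are not paired with a symbol here.

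With a blood transcript added to the model, no gene passed the threshold for genotype either. With the Alas2 level of each array as a covariate, limma called 0 genes higher and 0 lower at an adjusted p of 0.05, and 320 genes had an unadjusted p under 0.05, against 269 without it. With the mean of S100a8 and S100a9 as a covariate it also called 0 and 0, and 253 genes had an unadjusted p under 0.05. With Alas2 as a covariate the knockout difference was -0.06 (SE 0.29) for S100a8 and -0.12 (SE 0.46) for S100a9, and with the S100 mean as a covariate it was -0.41 (SE 0.45) for Alas2. These covariate fits were added after the values were seen. With 0 genes called both with and without the covariates, they do not show whether blood content hides a genotype difference. Wild type replicate 4, the highest for Alas2, also stood apart over all genes. The Alas2 covariate was therefore not told apart from the general deviation of that array. Rows of other blood cell transcripts were not looked up, so the total blood content of each sample was not estimated.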

How the data were processed

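Total RNA of gastrocnemius from 4 Anxa2 knockout and 4 wild-type mice was hybridised to 1 array each, after biotin labelling with an Affymetrix 3′ kit, per the labels' protocols. The deposited values are log2 expression values, made by the authors with RMA in R 3.1.2 per the submitters' processing notes. RMA corrects background, equalizes the arrays' distributions and summarizes probes, and it compresses differences near background. Neither the probe-set definition nor any filter is stated. There are no counts and no detection calls, so the number of arrays limits the precision.

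Genotypes were compared by a limma 3.58.1 fit (R 4.3.3) with genotype as the only term, two-sided moderated tests and Benjamini-Hochberg adjustment over all 17352 genes, at a threshold of 0.05 and with no filter on low values. The fit was run on simulated data with independent noise in each gene and array, which left out deviations that an array shares over genes. No result here rests on that simulation. Alternatives covered the replicate block, filters, moderation, array weights, scaling, the threshold, covariates and leaving out each array. Exact permutation tests and correlations used Python 3.11.15 with numpy 2.4.6. Nothing states whether the replicates differ in more than the animal, so p-values measure the spread between these arrays.

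The members and lists were chosen with earlier results of these data known. The genes named are the listed blood genes that have a row, and for likeness at most 2 rows per target. The name table (GRCm38.p6, 49997 genes) lists 0 Ensembl IDs, so 0 rows were matched, and the marker lists drawn up for red cells, neutrophils, other leukocytes, platelets, endothelium and muscle were not analysed here. Alternatives that used the mean of the globin genes could not be run for lack of their rows. Promoters of 3 genes were matched by symbol in the RefSeq table.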

Additional observations from a re-analysis of the deposited data

Results flagged for a closer look

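S100a8 in Anxa2 knockout replicate 2 read 5.11, far from the other 3 knockout arrays, which ran from 4.03 to 4.20. Its gap to the nearest array was 0.844 of the range of the group, above Dixon's 95% critical value for 4 samples. Chance flags about 1 in 20 groups, and 6 groups were checked with 1 such array found, so a single one is not unusual. S100a9 in the same array had a gap of 0.787 of the range, and Alas2 in wild type replicate 4 one of 0.662, both under the critical value.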

How the results depend on the processing

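Over the alternatives, 0 genes were higher in the knockout at the adjusted threshold in 20 of 20, and 0 were lower in 14. The number lower was 1 with the replicate block, array weights, median centring, quantile normalization, cyclic loess or an adjusted p under 0.10. In none of these settings was the gene called Alas2, S100a8 or S100a9. Whether it was the same gene in each was not recorded. With each array left out in turn, the log2 difference of knockout minus wild type ran from -0.78 to 0.047 for Alas2, from -0.39 to -0.0063 for S100a8 and from -0.63 to 0.088 for S100a9. The Alas2 difference was 0.085 without wild type replicate 4 and knockout replicate 2 together, and -0.0011 with array weights, against -0.44. With array weights the S100a9 difference was -0.48 and the S100a8 difference -0.26, against -0.17 and -0.14. In these fits the lowest adjusted p was 0.94 for each of the 3 genes. Same-numbered arrays deviated from their genotype means with correlations of -0.072, -0.25, 0.18 and -0.24, so the numbers were not taken to pair animals. With the replicate block the differences stayed at -0.44, -0.14 and -0.17 for Alas2, S100a8 and S100a9, with SEs of 0.43, 0.21 and 0.29, and it changed no call of these genes. The correlation of Alas2 with S100a9 turned from 0.136 to -0.14 without the 2 arrays farthest from the median of Alas2. S100a8 was not tested where only genes above the median level were kept. The cause of these shifts was not tested.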
